A study of Mus musculus with 27 samples.

Results

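Vascular endothelial cells line the vessels that cross muscle tissue, and they decide which leukocytes leave the blood after an injury. Rolling leukocytes are caught by selectins, and are then held by the immunoglobulin-family adhesion molecules, which bind integrins on the leukocyte surface. Inflammatory cytokines switch on several of these adhesion genes through the transcription factor NF-kB, whereas junction proteins and TIE receptors are made by endothelium at rest and mark its presence in a tissue. Described here are 10 such genes of the 54532 genes in the expression table, picked by symbol. They comprise 6 genes that mark endothelial identity (Pecam1, Cdh5, Tek, Tie1, Emcn and Vwf) and 4 adhesion genes that endothelium induces (Vcam1, Icam1, Sele and Selp).

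The genes were measured by bulk RNA sequencing of the tibialis anterior muscle of C57BL/6 mice, which the study describes as males of 8 weeks, after volumetric muscle loss (VML), a surgical removal of 40% of this muscle. Muscles without injury (n = 5) were compared with muscles explanted at day 3 (n = 5), day 7 (n = 6), day 14 (n = 6) and day 21 (n = 5) after VML, with no other treatment in any group. The public record calls the excision unilateral, the study's methods call it bilateral, and no label says whether libraries share an animal, so p-values measure the spread between these libraries. In bulk tissue, fewer cells of a type and less RNA per cell cannot be told apart.

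Values are FPKM, a count of fragments scaled to gene length and library size, which allows levels of different genes to be set side by side. Each library held 14376395 to 24436763 reads on genes. The deposited FPKM carry a scaling between libraries, in which the denominator averaged 0.782 times a library's own total of reads in the uninjured group and 1.25 times at day 3. Small differences at day 3 therefore depend on this scaling, and are given under others below. Of the 27 libraries, 9 lay nearer to the mean of another group than to that of their own, including a crossed pair: replicate 5 of day 3 was closest to the day 7 mean and replicate 5 of day 7 to the day 3 mean. All libraries were kept, and results were also computed without this pair.

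In uninjured muscle the endothelial identity genes spanned a wide range of levels, and the adhesion genes lay below all of them, at 53 reads or fewer per library. Cdh5, which encodes VE-cadherin of the adherens junction, was highest with an FPKM of 29.6 ± 2.94 (mean ± SD, n = 5). Pecam1, which encodes the junction protein CD31, followed with 16.4 ± 2.33, and Tie1, a receptor that modulates TEK signalling, had 14.2 ± 1.92. The ranges of Pecam1 (13.4 to 19.5) and Tie1 (11.7 to 17.1) overlapped, while the lowest value of Cdh5 was 26.5. Tek, the receptor of the angiopoietins, had 4.74 ± 0.321 and Emcn, a sialomucin of capillary and venous endothelium, had 4.57 ± 0.863, which did not differ beyond their spread. Vwf, the carrier of clotting factor VIII that endothelium stores and releases, had 1.68 ± 0.200. Below these lay Vcam1 at 0.325 ± 0.118, Icam1 at 0.311 ± 0.150 and Selp at 0.0882 ± 0.0564, and Sele had 0 reads in all 5 libraries. As a check of the labelled tissue, all 7 muscle fibre markers were detected, and all 6 endothelial identity genes had reads in each of the 27 libraries.

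**Figure D1:**
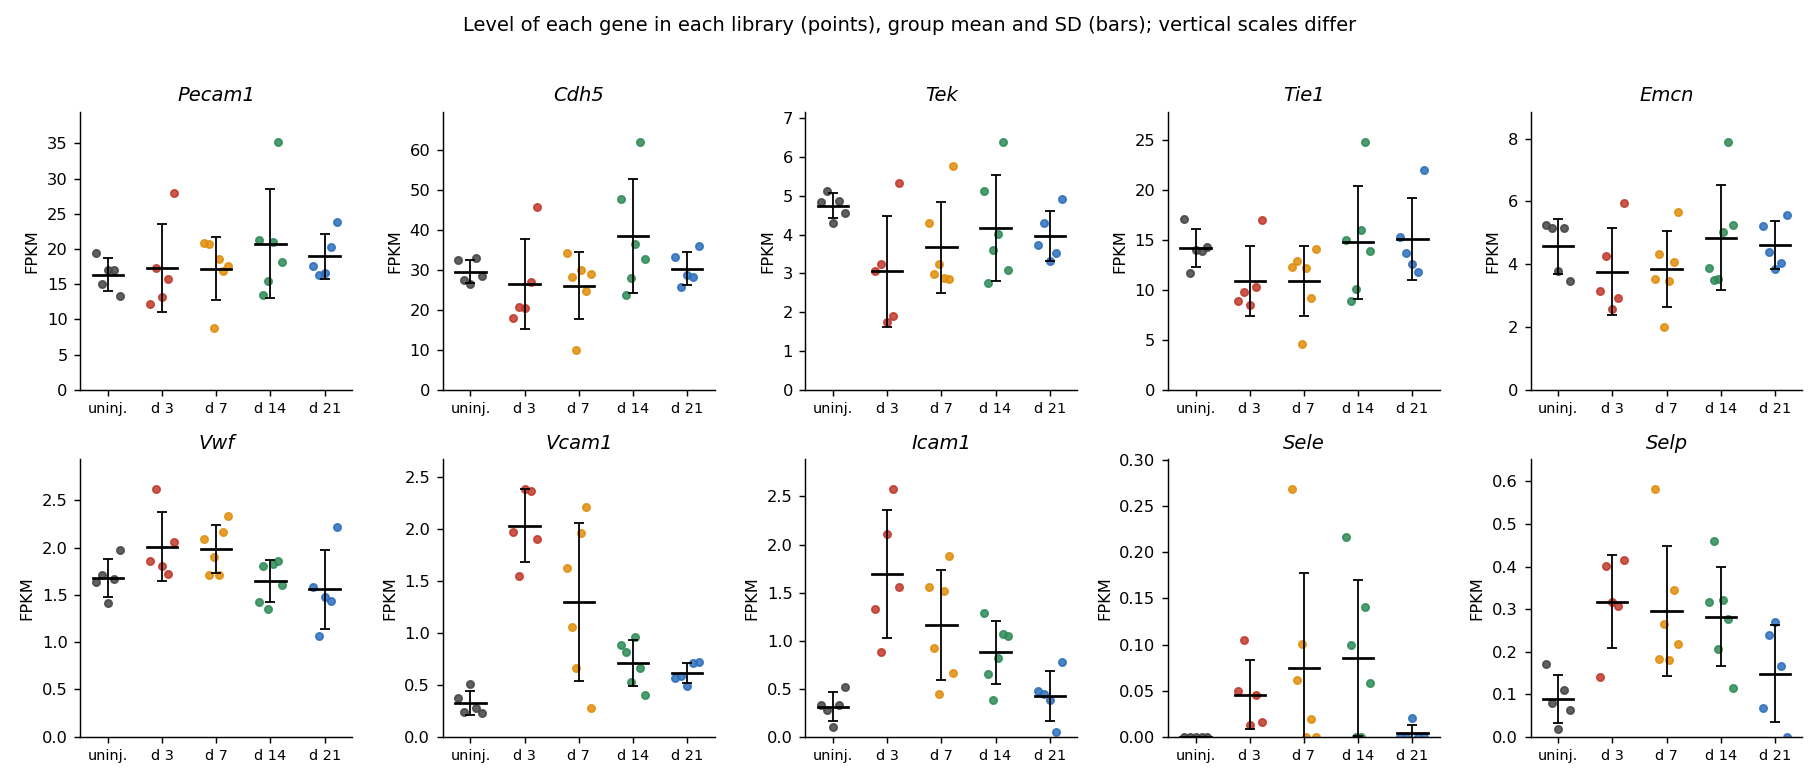
FPKM of the 10 genes in every library, with one panel per gene and its own vertical axis; points are libraries, horizontal bars are group means and error bars are SD. Vcam1 and Icam1 were above every uninjured library in all 5 libraries of day 3, whereas the points of the endothelial identity genes overlapped between groups.

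At day 3 after VML, Vcam1 and Icam1 rose 6.26-fold and 5.44-fold in mean FPKM, while Tek was lower and the other 5 tested genes did not pass the test. The test was made with limma on log2(FPKM + 1) over the 14630 genes that reached an FPKM of 0.5 in at least 5 libraries, with calls at a Benjamini-Hochberg adjusted p of 0.05. Of the 10 genes 8 were tested, 2 were called higher and 1 lower, where 43.2% of all tested genes were called. Sele and Selp were below the filter. Vcam1 and Icam1 passed the filter mostly through injured libraries, so that their calls are described singly and not as a share of the list.

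VCAM-1, the product of Vcam1 (ENSMUSG00000027962, chr3:116109949-116129688 on GRCm38), binds the integrin pair of ITGA4 and ITGB1 on leukocytes. In the uninjured libraries 1 to 5, the FPKM of Vcam1 was 0.372, 0.236, 0.509, 0.275 and 0.231, from 30 to 53 reads each. At day 3 it was 1.97, 1.54, 2.38, 2.37 and 1.90, and thus every injured library exceeded every uninjured one, which was so in either direction for 36.3% of tested genes. The difference was 1.19 on the log2(FPKM + 1) scale (SE 0.17, limma adjusted p = 1.11e-05), and an exact two-sided permutation test of these groups alone gave p = 0.00794, the smallest that 5 against 5 libraries allow.

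The fall from this level was gradual and uneven between libraries. For the 6 libraries of day 7 the lowest Vcam1 FPKM was 0.281, the mean 1.30 ± 0.757 and the highest 2.21, and the difference from uninjured was 0.73 (SE 0.17, limma adjusted p = 0.00268). Day 14 ranged from 0.402 to 0.962 with a mean of 0.711 ± 0.218, and its difference of 0.36 was not called (limma adjusted p = 0.123, exact permutation p = 0.00866). By day 21 the values were 0.568, 0.584, 0.491, 0.713 and 0.717, of which 4 lay above the uninjured range. Their mean difference of 0.29 was not called in the fit (limma adjusted p = 0.37, 95% interval -0.07 to 0.65), whereas the exact permutation test gave p = 0.0159. Such exact tests were made for 40 pairs of a gene and a time point, without adjustment.

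ICAM-1, encoded by Icam1 (ENSMUSG00000037405, chr9:21015985-21028817), binds the integrins that contain ITGB2. Its uninjured FPKM was 0.327, 0.280, 0.0977, 0.335 and 0.517, from 5 to 33 reads, and at day 3 it was 1.33, 0.883, 2.11, 2.58 and 1.56, again without overlap. The difference was 1.01 (SE 0.19, limma adjusted p = 0.000162, exact permutation p = 0.00794). Day 7 had a mean of 1.16 ± 0.569 and a difference of 0.69 (limma adjusted p = 0.00682). Vcam1 and Icam1 were the 2 members called at day 7, both higher, where 29.4% of all tested genes were called. Without the crossed pair of libraries, Vcam1 differed from uninjured by 1.20 at day 3 and 0.62 at day 7, and Icam1 by 1.02 and 0.59, all of them called higher.

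At day 14 Icam1 was the only member called, higher by 0.51 (SE 0.18, limma adjusted p = 0.0493), where 20.3% of tested genes were called. Its libraries ranged from 0.379 to 1.29 with a mean of 0.878 ± 0.328. This call was lost when any of 17 single libraries was left out, among them every uninjured one, with adjusted p-values of up to 0.115. At day 21 the level was 0.427 ± 0.262 and the difference 0.11 (limma adjusted p = 0.791), with values of 0.476, 0.448, 0.383, 0.0458 and 0.781 that spanned the uninjured range. Of the 8 tested genes, 0 were called at day 21, where 3.43% of all tested genes were called and 2898 had an unadjusted p under 0.05.

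**Figure D2:**
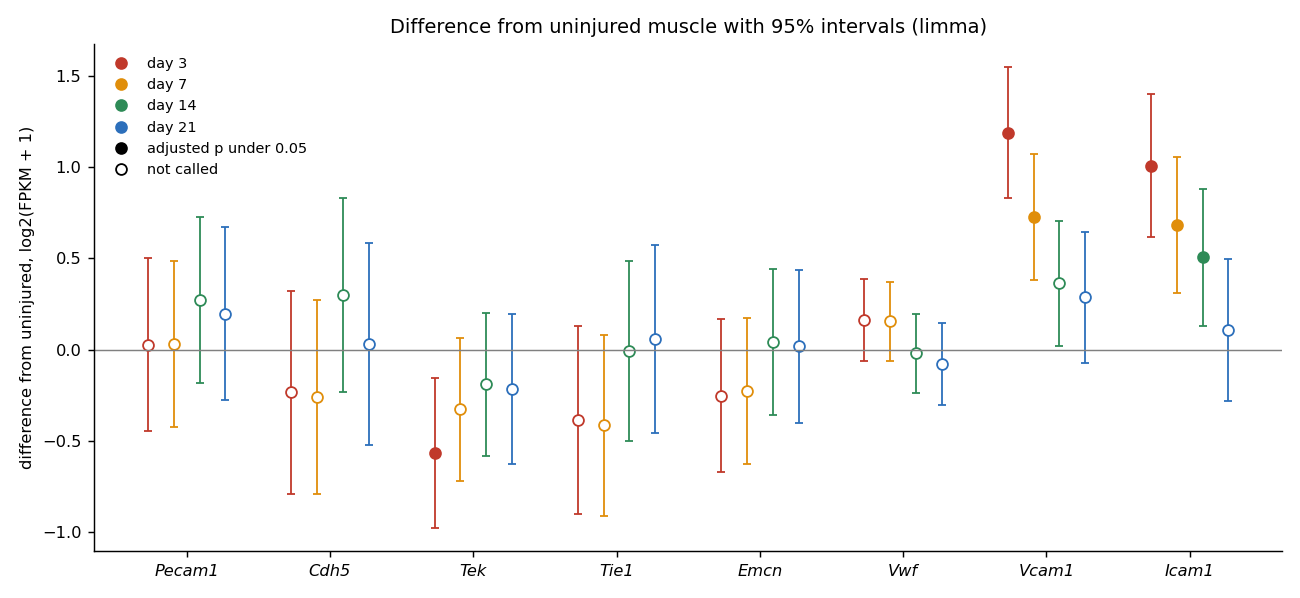
Difference from uninjured in mean log2(FPKM + 1) for the 8 tested genes at 4 time points; error bars are 95% intervals from limma, and filled points have an adjusted p under 0.05. Vcam1 and Icam1 stand at 1.19 and 1.01 at day 3 and approach 0 by day 21, and Tek is the only gene called lower.

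Between injured groups, Vcam1 and Icam1 fell from day 3 to day 21. Both decreased by 0.90 on the log2(FPKM + 1) scale (limma adjusted p = 0.000558 for Vcam1 and 0.00115 for Icam1). For both, all 5 libraries of day 21 were below all 5 of day 3, where 19.1% of tested genes did not overlap in either direction. Vcam1 and Icam1 were the 2 members called in this comparison, both lower, where 25.5% of tested genes were called. In the steps between neighbouring times, 0 of the 8 tested genes were called from day 3 to day 7 (0.0478% of tested genes called), 0 from day 7 to day 14 (0.335%) and 0 from day 14 to day 21, where 0% of tested genes were called and 909 had an unadjusted p under 0.05. Without day 7 replicate 5, however, Vcam1 was called lower at day 7 than at day 3 (-0.58, adjusted p = 0.0169). Without the crossed pair, Tek was called higher at day 21 than at day 3 (0.53, adjusted p = 0.0349).

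The selectins behaved in part like these genes, at levels too low for the fit. E-selectin, encoded by Sele (ENSMUSG00000026582, chr1:164048234-164057677), is made by endothelium only on activation, and its reads summed to 0 over the uninjured libraries. The sums after injury were 13, 32, 28 and 1 in the order of the time points. A count of 0 over the 5 uninjured libraries allows 3 reads, a mean FPKM of up to 0.0149. At day 3 every library had at least 1 read, with counts of 3, 5, 1, 3 and 1 (exact permutation p = 0.00794). At day 7 the counts were 21, 4, 5, 0, 2 and 0, and at day 14 they were 14, 5, 0, 0, 7 and 2, so that 1 library carried most of the reads of day 7 and 2 libraries of each group had none (exact permutation p = 0.106 and 0.0606).

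P-selectin, encoded by Selp (ENSMUSG00000026580, chr1:164115264-164150026), is stored in endothelial granules and in platelets. Its reads in the uninjured libraries were 10, 6, 1, 6 and 4, an FPKM of 0.0882 ± 0.0564. At day 3 the counts were 13, 29, 37, 31 and 39, which gave an FPKM of 0.317 ± 0.109, a 3.59-fold higher mean. All 6 libraries of day 7 (0.180 to 0.582) lay above the uninjured range, where 12.6% of tested genes did not overlap in either direction. Of day 14, 5 of 6 libraries lay above it. The exact permutation p-values were 0.0159 at day 3 and 0.00866 at both day 7 and day 14. By day 21 the FPKM was 0.148 ± 0.114 and 1 library had 0 reads (exact permutation p = 0.357). When no filter on low values was applied, Selp was called higher at day 3 (0.27, limma adjusted p = 0.0224) and Sele was not called at any time, with adjusted p-values of 0.194 or above.

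Markers of platelets were therefore examined beside Selp. Of 8 such genes 4 were tested, and the summed FPKM of all 8 was 4.54 to 7.26 in uninjured muscle and 30.6 to 186 at day 3. The highest sum of day 7, 371, was in replicate 5, which also had the highest summed FPKM of 7 leukocyte markers in that group (2284). The lowest sum of day 3 was in replicate 5, which also had the lowest leukocyte sum of its group (384). The other extremes of these groups fell in different libraries. Most of the sum at day 3 was Pf4, which rose by 4.56. The platelet glycoprotein gene Gp1ba was called lower as deposited (-0.53). As deposited, 1 of the 4 tested genes was called higher and 1 lower, where 43.2% of all tested genes were called. Gp1ba was not called when the libraries were brought to the same sum of FPKM (TPM, -0.22). Nor was it called when they were divided by their own totals of reads (-0.28). Under both, 3 of the 4 were called higher and 0 lower. The median of the 4 at day 3 was 0.49 as deposited, 0.75 in TPM and 0.69 with own totals. Over all tested genes the median was 0.01, 0.50 and 0.40. Gp1bb was at 0 in 26 of the 27 libraries and Gp6 in 24. The part of platelets in the level of Selp was not tested.

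For Icam1, Sele and Selp the 250 bases before the start are shown, since these 3 adhesion genes had higher levels after injury. The set of RefSeq promoters used (GRCm38.p6) holds theirs, as it does for 6 of the 10 genes. Vcam1, Pecam1, Cdh5 and Vwf were not in this set and were not searched. Capitals mark the letters GGNNNTTCC on either strand, which resemble an NF-kB site. Positions count backward from -1, the last base before the start, and give the first base of a match on the strand shown.

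Icam1: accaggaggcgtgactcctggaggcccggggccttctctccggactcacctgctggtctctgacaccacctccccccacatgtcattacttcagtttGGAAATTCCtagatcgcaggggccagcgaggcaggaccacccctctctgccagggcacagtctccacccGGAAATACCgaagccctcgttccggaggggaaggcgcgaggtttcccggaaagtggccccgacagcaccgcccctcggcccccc
Sele: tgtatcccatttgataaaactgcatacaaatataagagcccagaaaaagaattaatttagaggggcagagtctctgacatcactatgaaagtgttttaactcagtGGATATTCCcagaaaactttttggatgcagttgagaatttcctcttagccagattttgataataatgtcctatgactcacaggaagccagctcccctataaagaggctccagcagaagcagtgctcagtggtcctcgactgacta
Selp: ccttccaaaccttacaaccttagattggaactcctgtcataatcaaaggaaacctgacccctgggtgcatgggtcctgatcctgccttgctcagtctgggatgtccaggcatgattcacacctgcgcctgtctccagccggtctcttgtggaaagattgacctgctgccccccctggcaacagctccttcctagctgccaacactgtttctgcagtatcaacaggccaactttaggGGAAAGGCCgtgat

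These windows are chr9:21015690-21015939 for Icam1, chr1:164047984-164048233 for Sele and chr1:164115014-164115263 for Selp, all on the plus strand. Icam1 held matches at -153 (GGAAATTCC, which reads on both strands) and at -84 (GGAAATACC), Sele at -145 (GGATATTCC) and Selp at -14 (GGAAAGGCC). Of the 32851 promoters in the table, searched from 250 bases before to 50 bases after the start, 18.5% held such letters. No match was found in these windows of Tek, Tie1 and Emcn. The letters CAGGAAG, which resemble a site of ETS factors, were present in Sele at -66 and, on the reverse strand, in Emcn at -174, and in 13.3% of all promoters. A match is a description of the letters only.

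Among the endothelial identity genes, only Tek (ENSMUSG00000006386, chr4:94739289-94874976) was called against uninjured muscle in the fit of deposited FPKM, and only at day 3. Its uninjured FPKM was 4.84, 5.13, 4.29, 4.86 and 4.57, and at day 3 it was 3.05, 3.23, 1.75, 1.90 and 5.33. Thus 4 of 5 injured libraries lay below the uninjured range and replicate 5 lay above it. The difference was -0.57 (SE 0.20, limma adjusted p = 0.0232, exact permutation p = 0.0476). It was -0.75 (adjusted p = 0.00231) without day 3 replicate 5 and day 7 replicate 5, and was no longer called without day 3 replicate 3 (-0.44, adjusted p = 0.0877) or without day 3 replicate 4 (-0.46, adjusted p = 0.0826). At later times the means were 3.67 ± 1.17 at day 7, 4.17 ± 1.36 at day 14 and 3.96 ± 0.649 at day 21, none of them called.

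For the other 5 endothelial identity genes the differences at day 3 were 0.03 for Pecam1 (95% interval -0.45 to 0.50), -0.23 for Cdh5 (-0.79 to 0.32), -0.39 for Tie1 (-0.90 to 0.13), -0.25 for Emcn (-0.67 to 0.17) and 0.16 for Vwf (-0.06 to 0.39). At day 14 the means were 38.5 ± 14.2 for Cdh5 and 20.8 ± 7.71 for Pecam1, with intervals of the difference from -0.23 to 0.83 and from -0.18 to 0.73. Without day 14 replicate 5 the difference of Pecam1 was 0.11 in place of 0.27. At day 21 the means of Cdh5 (30.4 ± 4.12), Tie1 (15.1 ± 4.10), Emcn (4.61 ± 0.755) and Vwf (1.56 ± 0.418) were within 1 uninjured SD of the uninjured means, and that of Pecam1 (18.9 ± 3.16) was above 16.4 ± 2.33 by more than 1 uninjured SD, with none of the 5 called.

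The scaling of the libraries decided the sign of several of these small differences. When every library was brought to the same sum of FPKM (TPM), the median of all genes moved to 0.50 at day 3, and with each library's own total of reads as denominator it moved to 0.40, from 0.01 as deposited. Relative to that median, Tek stood at -0.58 as deposited, -0.43 in TPM and -0.46 with own totals, but it was not called in the latter 2 (adjusted p = 0.832 and 0.842). Vwf stood at 0.15, 0.20 and 0.18 relative to the median, and was called higher in TPM (adjusted p = 0.00188) and with own totals (adjusted p = 0.000955). Pecam1 was called higher in TPM only, with 0.31 relative to the median. For Cdh5 the relative values were -0.25, 0.06 and 0.00. Vcam1 and Icam1 were called higher at day 3 under all 4 scalings tried, at 1.09 and 0.88 or more relative to the median.

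**Figure D3:**
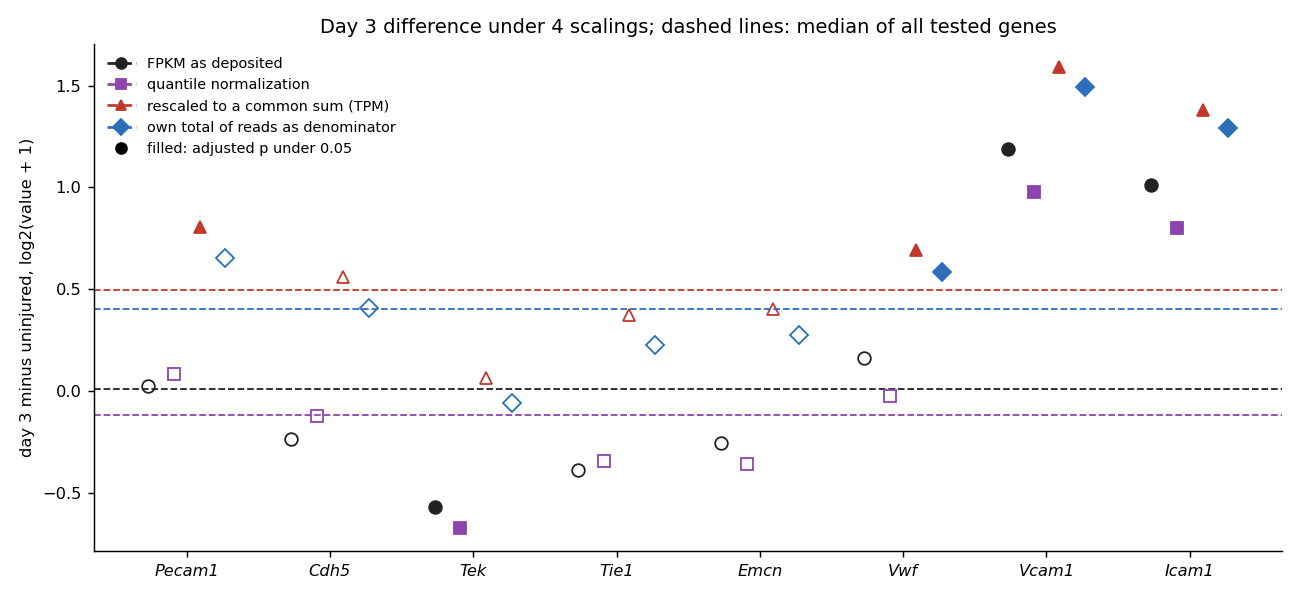
Difference between day 3 and uninjured for the 8 tested genes under 4 scalings of the libraries, on the log2(value + 1) scale; dashed lines are the median over all tested genes under the scaling of that colour, and filled symbols have an adjusted p under 0.05. Vcam1 and Icam1 stay above every line, and Tek stays below the line of its own scaling. Cdh5, Tek, Tie1 and Emcn change sign between scalings, and Vwf is below 0 under quantile normalization only.

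Ratios within a library do not depend on this scaling, and were examined after the values had been seen. The log2 ratio of FPKM to Cdh5 was computed for 7 genes, and 28 exact two-sided permutation tests against uninjured muscle were made, without adjustment. Relative to Cdh5, Vcam1 was higher by 2.94 at day 3 and Icam1 by 2.78, in 5 of 5 libraries each (exact p = 0.00794 for both). At day 21 Vcam1 was still higher by 0.94 (exact p = 0.0238, 3 of 5 libraries above the uninjured range) and Icam1 by 0.15 (exact p = 0.849).

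Tek fell against Cdh5 most evenly at day 14, by 0.55 in 6 of 6 libraries (exact p = 0.00217), whereas at day 3 its ratio differed by -0.51 with 3 of 5 libraries below the uninjured range (exact p = 0.103). At day 21 it differed by -0.30 (exact p = 0.0476, 4 of 5 libraries). Tie1 was lower against Cdh5 at day 14 by 0.32 (exact p = 0.0217). Pecam1 was higher by 0.27 at day 3 (exact p = 0.0476) and by 0.31 at day 7 (exact p = 0.0325). The ratios also hold shifts of Cdh5, which differed from uninjured by -0.23, -0.26 and 0.30 in log2(FPKM + 1) at days 3, 7 and 14. On that scale Tek differed by -0.19 and Tie1 by -0.01 at day 14, and none of these differences was called. For Emcn the smallest exact p was 0.188. The ratio of Vwf differed by 0.49 at day 3 (exact p = 0.119), and by 0.70 (exact p = 0.0159) when day 3 replicate 5 was left out.

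**Figure D4:**
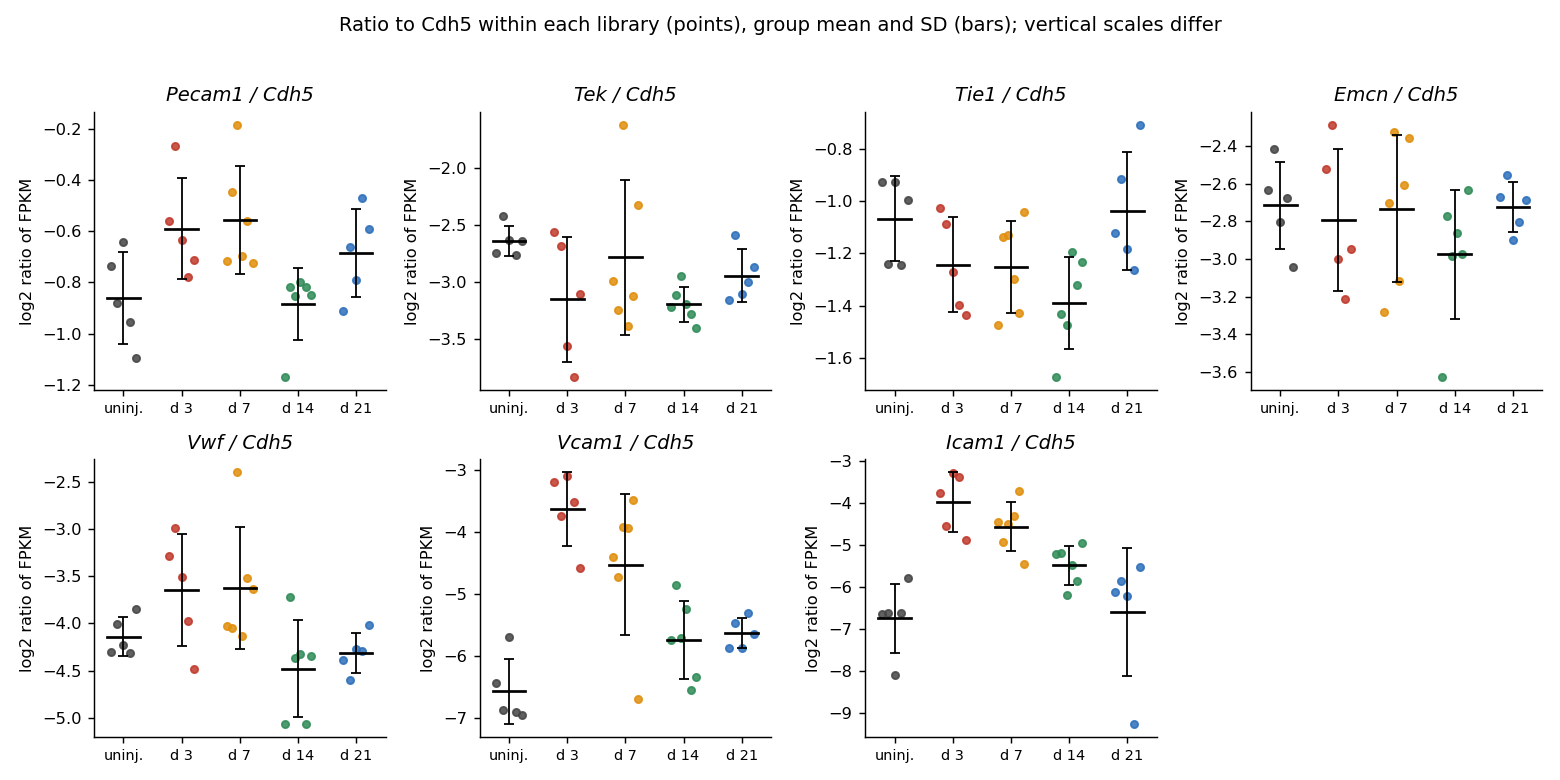
Log2 ratio of the FPKM of 7 genes to that of Cdh5 in the same library, with one panel per gene and its own vertical axis; points are libraries, horizontal bars are group means and error bars are SD. The ratios of Vcam1 and Icam1 at day 3 lie above all uninjured libraries, and those of Tek at day 14 lie below them.

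Over the 27 libraries, the standardized profiles of 5 of the 6 endothelial identity genes (Pecam1, Cdh5, Tek, Tie1 and Emcn) differed from each other by a mean of 0.351 to 0.792 SD. That of Vwf lay farther from each of these 5, at 1.11 SD from Pecam1 and 1.14 SD from Cdh5. It was nearer to the adhesion genes Icam1 (0.858 SD) and Vcam1 (0.921 SD). Day 14 replicate 5 held the highest value of its group for all 6 endothelial identity genes, among them 62.1 FPKM of Cdh5 and 35.2 of Pecam1. Day 21 replicate 5 also did for all 6. In the same way day 3 replicate 5 was highest for 5 of 6, with 45.8 FPKM of Cdh5, and day 7 replicate 3 was lowest for 4 of 6, with 9.999 FPKM of Cdh5. Over all libraries, the 3 profiles most like that of Cdh5 among all tested genes were those of Pecam1, Tie1 and the transcription factor gene Ets1, with mean absolute differences of 0.351, 0.358 and 0.371 SD between standardized profiles, where the median over tested genes was 1.11 SD. The closest profiles to Vcam1 were Mpeg1 (0.204 SD), Unc93b1 (0.237 SD) and Arl4c (0.243 SD). Mpeg1, a macrophage gene, rose from a mean FPKM of 0.372 in uninjured muscle to 45.7 at day 3.

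Leukocyte markers, like Vcam1 and Icam1, were highest at day 3 and fell later. Within groups, the order of libraries by these markers and by these genes differed. Over all tested genes, 43.2%, 29.4%, 20.3% and 3.43% were called at days 3, 7, 14 and 21, respectively. On these days 7, 7, 4 and 0 of the 7 markers of leukocytes and macrophages were called higher, and Lyz2, the most abundant, rose by 5.77 at day 3. Their summed FPKM was 18.2 to 27.7 in uninjured muscle and 384 to 2415 at day 3. It ranged from 53.8 to 2284 among the day 7 libraries, from 49.3 to 133 by day 14, and from 39.6 to 66.4 by day 21. At day 7 the library with the highest sum, replicate 5, had the highest Vcam1 (2.21) and Icam1 (1.88), and the library with the lowest sum, replicate 6, had the lowest Vcam1 (0.281), while its Cdh5 (28.96) was above the mean of its group. The lowest Icam1 at day 7 was in replicate 3 (0.444), with 0.663 in replicate 6. At day 3 the library with the lowest sum, replicate 5 (384), had a Vcam1 of 1.90 and an Icam1 of 1.56. Both genes were lowest in replicate 2 (1.54 and 0.883), with a sum of 1112. At day 21 replicate 4 had the lowest sum (39.6), a Vcam1 of 0.713 and the lowest Icam1 (0.0458). The part of leukocytes in the level of Vcam1 and Icam1 was not tested.

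**Figure D5:**
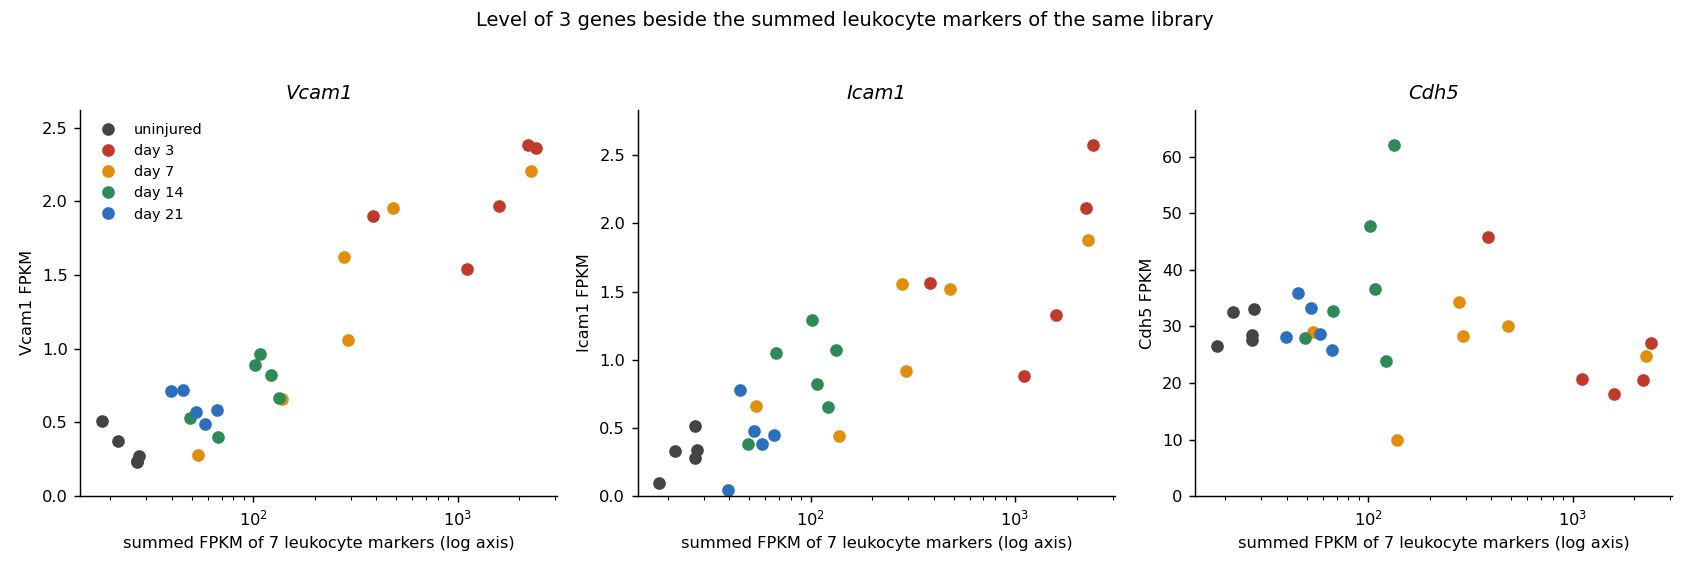
FPKM of Vcam1, Icam1 and Cdh5 beside the summed FPKM of 7 leukocyte markers in the same library, on a log axis; each point is a library, coloured by group. The uninjured libraries, with sums of 18.2 to 27.7, are the lowest in Vcam1 as a group, the 3 libraries with the highest sums (2216 to 2415) have Vcam1 values of 2.21 to 2.38, and the highest value of Cdh5, 62.1, is in a day 14 library.

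The leukocyte partners of the adhesion molecules were also higher after injury. Of 14 integrin chains, selectin ligands and their membrane linkers, 13 were tested, with 12, 8, 3 and 0 called higher on days 3, 7, 14 and 21, respectively, and 0 lower. Over all tested genes, 43.2%, 29.4%, 20.3% and 3.43% were called on these days. The median difference of the 13 at day 3 was 1.54, beside 0.01 over all tested genes. Itgb2, the shared chain of the ICAM-1 binding integrins, had the largest rise at day 3 (3.31). Of 8 NF-kB pathway genes, 4 were called higher at day 3 and 0 lower, beside 43.2% of all tested genes called in either direction, and under both TPM and own totals 6 were called higher at day 3 and 6 at day 7. As deposited, 1 of the 8 NF-kB pathway genes was called at day 7, day 14 and day 21. This was Nfkb2, which encodes the precursor of a noncanonical subunit, with 1.58 at day 3 and 0.98 at day 21, although the call at day 21 was absent under TPM, own totals and quantile normalization.

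Within the angiopoietin and TIE pathway, 1 of 5 tested genes was called higher at day 3 and 2 lower. Over all tested genes, 43.2% were called. The median of the 5 was -0.16, beside 0.01 over all tested genes. Under TPM 3 of 6 were called higher and 0 lower, with a median of 0.38 beside 0.50 over all tested genes. The count of 3 is therefore no measure of a rise beyond that of other genes. Svep1, an extracellular matrix gene whose product binds TIE1, was higher by 0.64. Ptprb, which encodes the phosphatase that restrains TEK, was called lower as deposited (-0.62), and was not called under TPM (-0.00) or own totals (-0.12).

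Other endothelial genes were examined by their type of vessel and function. Of 15 further surface and junction genes, 1 was called higher at day 3 and 5 lower, a share near the 43.2% of all tested genes called at day 3, and TPM gave 6 higher and 1 lower. The gene that rose was Plvap, which encodes the diaphragm protein of fenestrated and activated endothelium, by 1.44. Kdr, the VEGF receptor, had the largest fall (-1.33), and it was called lower at all 4 times, with -0.90 at day 21. Under TPM it was called lower at day 3 (-0.64) and day 7 (-0.82) and not later.

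Of 7 capillary genes, 3 were called lower and 0 higher at day 3, again near the 43.2% of all tested genes, with a median of -0.54. Under TPM 3 were called higher and 1 lower, with a median of 0.25 beside 0.50 over all tested genes. Aqp1, a water channel, fell the most (-1.58) and was also called lower under TPM (-0.76). Among 6 tested arterial genes 1 was higher (Gja5, a gap junction gene, 0.69) and 1 lower (the Notch ligand gene Dll4, -0.89, not called under TPM). Of 4 venous genes 0 were called at day 3, where 2 were called higher under TPM, and of 4 sprouting genes 2 were higher and 0 lower, led by Apln, the gene of the apelin peptide of tip cells (1.35, and 1.92 under TPM). Of 9 tested endothelial transcription factors, 0 were called at day 3 and 2 were called higher at day 14, where 20.3% of all tested genes were called. Under TPM 4 of the 9 were called higher at day 3.

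Markers of other cells of the muscle also moved with the time points. At day 3, 4 of 7 mural cell genes were called lower and 0 higher, led by Kcnj8 (-1.35), whereas under TPM 1 was lower and 3 were higher. Their summed FPKM was 140.5 to 176 in uninjured muscle and 66.6 to 142 at day 3. The most abundant of them, Rgs5, had -0.98, and -0.17 (not called) under TPM. Of 4 tested lymphatic genes 2 were higher, led by Pdpn (2.38), which other cell types also express. Myog led the 3 of 4 satellite cell and myoblast genes that rose at day 3 (5.63), and Lum led the 4 of 5 genes of fibro-adipogenic progenitors (1.54), whose most abundant gene Ly6a rose by 0.73 and was not called without the crossed pair of libraries (0.61). Of 7 muscle fibre genes 5 were lower as deposited, 2 under TPM and 1 under quantile normalization, led by Myh4 (-1.94), with Acta1 at -0.77 as deposited and 0.05 under TPM. Of 5 red blood cell genes 0 were called, with Hbb-bs at -0.37. The part of these cells in the levels of the 10 genes was not tested.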

How the data were processed

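RNA of 27 tibialis anterior muscles was sequenced from poly-T selected, non-directional libraries. Per the labels, the authors aligned reads with HISAT2 2.0.5 and counted them per gene with featureCounts 1.5.0-p3. They deposited FPKM with gene lengths. The build is not named, and coordinates of the 10 genes equal those of GENCODE M21 on GRCm38. FPKM times length gave whole reads for 100% of values (tolerance 0.02 reads), with totals of 14376395 to 24436763, so levels under about 0.1 FPKM rest on a few reads. Antisense genes overlapping Cdh5, Vcam1, Icam1 and Selp had a mean FPKM of at most 0.0202.

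Groups and replicate numbers were read from sample titles. The 10 genes, the gene lists and the tests were chosen with earlier results of these data known. After a filter that kept 14630 genes (0.5 FPKM or more in 5 samples or more), log2(FPKM + 1) of all samples was fitted jointly with limma 3.58.1 (R 4.3.3) and a mean-variance trend. Tests were two-sided, and p-values were adjusted per comparison by Benjamini-Hochberg. The rule for other genes named was the largest called rise and fall of each list at day 3, the most abundant gene of lists of other cells, and the 3 nearest profiles. Exact permutation tests, motif searches and figures used Python 3.11.15, pandas 2.3.3, numpy 2.4.6 and matplotlib 3.10.9. The scripts were tested on simulated data. Alternatives were pseudocounts of 0.1 and 0.5, no filter, an FPKM minimum of 1, quantile normalization, TPM, limma without the trend, replicate blocks by number and by letter, 2-group fits, voom on whole reads, and each sample left out. Own read totals as denominator, ratios to Cdh5 and leaving out a pair of libraries were added after seeing the data.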

Additional observations from a re-analysis of the deposited data

Results flagged for a closer look

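Of 50 groups of values examined for a sample far from the others, 4 were marked, where chance marks about 1 in 20 groups. Pecam1 in day 7 replicate 3 had an FPKM of 8.79, the lowest of its group, and Pecam1 in day 14 replicate 5 had 35.2, the highest of its group. Tie1 in day 3 replicate 5 had 16.97, the highest of its group, and this library lay nearest to the day 7 mean over all genes. Sele in day 21 replicate 3 had 0.0205, which is 1 read where the other 4 libraries had 0.

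The differences from uninjured muscle also changed between time points for both immunoglobulin-family adhesion genes. From day 3 to day 21, the difference changed by -0.90 for Vcam1 (limma adjusted p = 0.000558) and by -0.90 for Icam1 (limma adjusted p = 0.00115), lower in 5 of 5 libraries. Both contrasts share the uninjured libraries, which cancel in this comparison.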

How the results depend on the processing

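The calls of Vcam1 and Icam1 as higher at day 3 and day 7, and as lower at day 21 than at day 3, were made under every alternative run. Under TPM 9 members passed the filter on low values, Selp being added to the 8. Of these, 5 were called at both day 3 and day 7 (Pecam1, Vwf, Vcam1, Icam1 and Selp), all higher. The median of all tested genes under TPM was itself 0.50 at day 3 and 0.47 at day 7. The count of 5 is therefore no measure of a rise beyond that of other genes. At day 14 the single call became 2 with a pseudocount of 0.1, with a replicate block by number or by letter and with 2-group fits, in which Vcam1 joined Icam1, and 0 without a filter, with quantile normalization, TPM, limma without the trend, voom weights or own read totals. Leaving out 1 library gave 2 to 3 calls at day 3, 2 at day 7, 0 to 1 at day 14 and 0 to 1 for day 7 against day 3. Without both libraries of the crossed pair 1 member was called in the latter, and Pecam1 at day 3 had -0.15 (with single libraries left out, -0.15 to 0.13).

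At day 3 under TPM, Cdh5 stood at 0.56, Tek at 0.066, Tie1 at 0.38 and Emcn at 0.40, and with own read totals Cdh5 had 0.41, Tie1 0.23 and Emcn 0.27, all opposite in sign to the deposited scaling and not called. Quantile normalization gave Vwf -0.023. For Tek these scalings gave 0.26 and 0.11 at day 7, and 0.21 and 0.14 at day 14. Over all tested members and 5 comparisons, 61 values changed sign and 60 of these were not called under either setting. The exception was Tek at day 3 under TPM. The cause of these changes beyond the shift of the median was not tested. Same-numbered samples deviated together (r over 0.1) in 15 of 51 pairs, with r from -0.52 to 0.57. With so wide a range, this check cannot tell whether replicate numbers pair the samples or whether libraries share an animal. The block by number changed no call of a named member other than that of Vcam1 at day 14 (0.47, adjusted p = 0.0197). Depth limits Sele and Selp, and Vcam1 and Icam1 in uninjured muscle, where a library held 53 reads or fewer.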
